A study of Arabidopsis thaliana with 9 samples.

Results

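To ask where the floral regulator LEAFY (LFY) sits around the genes of a transcription factor family, the WRKY genes of Arabidopsis thaliana were examined in a list of LFY binding peaks from cultured root tissue. The members were 60 loci of the WRKY family, chosen by locus identifier, out of 27444 protein-coding genes on the 5 nuclear chromosomes. They were chosen with earlier results of these data known. A member counted as bound when the summit of a peak, its point of highest signal, lay in the gene or up to 3 kb upstream of its start, and a second setting took 5 kb. The 5 kb distance was chosen because *WRKY48* was already known to have a very strong peak beyond 3 kb. The peaks came from ChIP-seq, in which DNA pulled down by anti-LFY antibodies from fixed chromatin is sequenced. Callus was formed from roots of seedlings grown for 3 weeks and then kept for 5 days on callus inducing medium (CIM). The 9 libraries fell into 3 groups of 3, namely dex-treated ChIP, mock-treated ChIP and untreated input without antibody. All 3 groups were of the cultivar L.er (Landsberg erecta) and carried 35S:LFY-GR, a fusion of LFY to the glucocorticoid receptor driven by a constitutive viral promoter, so that the protein is made in most cells and enters the nucleus only with steroid. The dex group received 5 µM dexamethasone and the mock group a mock solution during the final 1 h on CIM, by the sample labels, whereas the series text states 24 h. The authors pooled the 3 dex libraries and the 3 mock libraries before calling peaks. Every value below therefore stands for pooled libraries and has no replicate error. The depth of each library is unknown, and no marker of the tissue could be checked in a list of peaks.

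WRKY proteins are plant transcription factors named for a conserved run of amino acids in their DNA-binding domain, which also holds a zinc finger. They bind the W-box, TTGACC or TTGACT, a short element that is frequent in promoters of defence genes and of WRKY genes themselves, so that members of the family regulate one another. Group I proteins have a pair of WRKY domains, groups II and III have one, and group II is divided into IIa to IIe. Many members act in immunity, others in senescence, nutrient supply, seed development or organ growth. LFY recognises a palindromic element whose centre is CCANTGG, and in flowers it activates floral homeotic genes.

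The LFY list held 1177 nuclear summits. Of the 60 WRKY members, 10 (16.7%) had a summit in the gene or within 3 kb upstream, against 1185 of 27444 protein-coding genes (4.32%). Within 5 kb the counts were 11 members (18.3%) and 1681 protein-coding genes (6.13%). The members with a summit within 3 kb were *WRKY2*, *WRKY3*, *WRKY8*, *WRKY11*, *WRKY18*, *WRKY23*, *WRKY40*, *WRKY48*, *WRKY49* and *WRKY72*, and *WRKY6* joined them within 5 kb. These 10 members held 14 summits within 3 kb, and the 11 members held 18 within 5 kb. The shares describe one list of genes, chosen with earlier results of these data known, in one pooled peak list. No test of the difference was made.

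The sequences of 6 summits are shown because they cover the range of what was found: an exact LFY core, W-boxes next to the summit with no exact core, and strong summits with neither in the stretch printed. Each run is 101 bases of the RefSeq sequence of TAIR10.1 centred on the summit and read 5′ to 3′ on the strand of the WRKY gene. Capitals mark an exact CCANTGG core or a W-box on either strand, in which a W-box on the opposite strand reads GGTCAA or AGTCAA.
WRKY11 summit, chr4:15292565-15292665, minus strand: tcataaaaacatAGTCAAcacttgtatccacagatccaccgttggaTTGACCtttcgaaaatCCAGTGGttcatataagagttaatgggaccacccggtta
WRKY40 summit, chr1:30382686-30382786, plus strand: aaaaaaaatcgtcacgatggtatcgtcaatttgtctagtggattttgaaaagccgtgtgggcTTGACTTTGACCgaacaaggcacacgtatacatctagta
WRKY72 summit, chr5:4901394-4901494, plus strand: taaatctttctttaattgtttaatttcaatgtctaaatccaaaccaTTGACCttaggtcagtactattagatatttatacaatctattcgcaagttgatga
WRKY48 distal summit, chr5:20085864-20085964, plus strand: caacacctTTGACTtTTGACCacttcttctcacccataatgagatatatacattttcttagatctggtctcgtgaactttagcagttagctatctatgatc
WRKY6 distal summit, chr1:23023967-23024067, minus strand: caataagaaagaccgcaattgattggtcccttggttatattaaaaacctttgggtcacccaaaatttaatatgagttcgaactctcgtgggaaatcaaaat
WRKY23 distal summit, chr2:19409950-19410050, minus strand: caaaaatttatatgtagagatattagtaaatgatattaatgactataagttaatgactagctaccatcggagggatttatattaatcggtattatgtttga
The *WRKY11* window holds both kinds of element, *WRKY40* and the distal *WRKY48* summit each have a pair of W-boxes in the same orientation, and the distal summits of *WRKY6* and *WRKY23* have no capital letters, although a W-box lies 98 bp from that of *WRKY23*, outside the stretch printed.

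Values are given per summit as the authors' fold enrichment of pooled dex over pooled mock signal, which is a ratio, and as the reads behind it. The reads were recovered by solving the deposited fold and p-value together under the model of the peak caller. From them a dex to mock ratio scaled for depth was computed, with an exact 95% interval that covers counting error only. The interval makes no allowance for the choice of summits and peaks by this same signal. The mock background at a summit was never below a genome-wide floor of 18.0 reads per window of the read extension. Where the background was this floor, the interval covers the dex reads alone and is narrower.

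**Figure D1:**
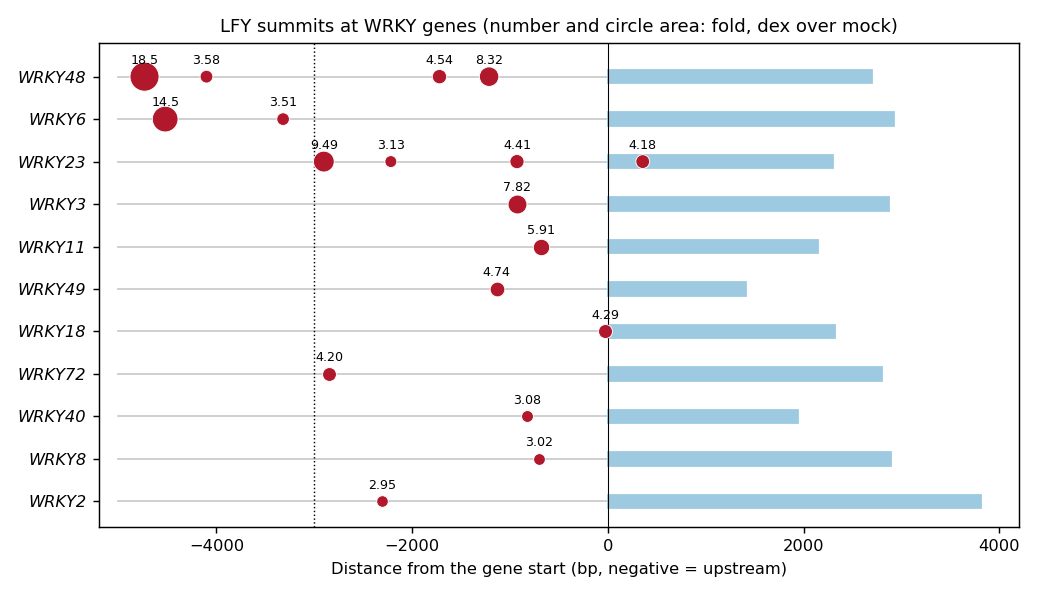
Positions of LFY summits at the 11 WRKY genes with a summit in the gene or up to 5 kb upstream, in bp from the gene start with upstream to the left. Blue bars are the genes, circle area and numbers give the authors' fold of dex over mock, and the dotted line marks 3 kb; WRKY48 and WRKY6 have their strongest summit (18.5 and 14.5) beyond that line, and WRKY23 has one summit inside the gene.

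*WRKY23* (AT2G47260), a group IIc gene induced by auxin in embryos and roots, had 4 summits, and it was 1 of only 4 protein-coding genes with that many within 3 kb. The gene lies at chr2:19404802-19407098 on the minus strand of TAIR10. Its strongest summit was the farthest, 2902 bp upstream at position 19410000, with a fold of 9.49, 300 dex reads over a background of 24 mock reads and a ratio of 9.85 (6.49 to 15.6). It ranked 52 of 1177 by fold. The summit 2217 bp upstream was the weakest of the 4, at 74 dex reads over the floor and a fold of 3.13. The summit 928 bp upstream had 122 dex reads over 21 mock reads and a fold of 4.41. The remaining summit lay 357 bp inside the gene, in exonic sequence that is not coding, with 126 dex reads over 23 mock reads and a fold of 4.18. The interval of the ratio at the farthest summit did not overlap that of the summit 2217 bp upstream (2.55 to 4.07), whereas it did overlap those of the other two (2.87 to 7.66 and 2.75 to 7.06). Neighbouring summits were 685 to 1289 bp apart, and no other protein-coding gene took any of them.

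*WRKY48* (AT5G49520), also of group IIc and known as a negative regulator of resistance to *Pseudomonas syringae*, carried the strongest summit of the family. It lay 4734 bp upstream of the gene (chr5:20090648-20093346, plus strand), with 679 dex reads over 28 mock reads, a fold of 18.5 and a ratio of 19.1 (13.1 to 29.0). By fold and by dex reads it ranked 2 among the 1177 nuclear summits. A second strong summit, 1213 bp upstream, had 305 dex reads over the same background of 28 reads, a fold of 8.32 and a ratio of 8.58 (5.82 to 13.1). Summits at 1720 bp and 4101 bp upstream were weaker, with 108 and 85 dex reads over the floor and folds of 4.54 and 3.58. The 4 summits thus formed a proximal and a distal pair, with 507 bp and 633 bp within the pairs and 2381 bp between them. The upstream gap of *WRKY48*, the distance to the next annotated gene, was 7605 bp. No other protein-coding gene held these summits or had them within 3 kb upstream, the only positions looked up for other genes. Both distal summits lay nearer to that next annotated gene than to *WRKY48*, so they may be counted to either gene. Under the 3 kb setting the proximal pair counted and the distal pair did not.

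*WRKY6* (AT1G62300), a group IIb factor of senescence and of phosphate supply, was the member just outside the 3 kb limit. Its nearer summit lay 3318 bp upstream, with 177 dex reads over 39 mock reads and a fold of 3.51. Its farther summit, 4523 bp upstream, had 347 dex reads over the floor, a fold of 14.5 and a ratio of 15.2 (13.7 to 16.9). This second summit ranked 9 of 1177 by fold and lay in an exon of the long non-coding RNA gene AT1G08497. The summit just inside the limit was that of *WRKY23* at 2902 bp, a member that also had nearer summits. The member that counted only through a summit close to the limit was *WRKY72*, at 2846 bp. *WRKY72* (AT5G15130), the other group IIb member with a summit and a factor of basal defence, had 100 dex reads over 18 mock reads, a fold of 4.20 and a ratio of 4.38 (2.63 to 7.69).

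Of the 3 group IIa genes, *WRKY18*, *WRKY40* and *WRKY60*, whose proteins bind one another and act together in defence and abscisic acid signalling, 2 had a summit. *WRKY18* (AT4G31800) had the summit closest to a start, 28 bp upstream at chr4:15382749, with 113 dex reads over 20 mock reads, a fold of 4.29 and a ratio of 4.45 (2.75 to 7.56). The same summit was also 2531 bp upstream of AT4G31805. The summit of *WRKY40* (AT1G80840) was 825 bp upstream and weak, with 73 dex reads over the floor, a fold of 3.08 and a ratio of 3.20 (2.51 to 4.02). Its −log10 q-value of 10.6 was close to the limit of 10 that the authors set for the list. *WRKY60* had no summit within 5 kb, and the nearest one was 160463 bp away.

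Both group I genes with a summit, *WRKY2* and *WRKY3*, encode proteins with a pair of WRKY domains. *WRKY3* (AT2G03340), which acts with *WRKY4* in resistance to necrotrophic fungi, had 187 dex reads over the floor 926 bp upstream, a fold of 7.82 and a ratio of 8.20 (7.06 to 9.46). Its rank by fold was 105 of 1177. *WRKY2* (AT5G56270), which acts in pollen, in the polarity of the zygote and in abscisic acid responses, had the lowest ratio of all the member summits, 2.99 (2.13 to 4.27), although its 167 dex reads were not few. The mock background there was 44 reads, 2.45 times the floor and the highest at any member. That summit was 2303 bp upstream of *WRKY2* and 44 bp inside the neighbouring gene AT5G56260, in an exon outside the coding sequence, so it may be counted to either gene. When each summit was given only to the gene with the nearest start, *WRKY2* was the 1 member lost and 9 remained. The intervals of *WRKY3* and *WRKY2* did not overlap.

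*WRKY11* (AT4G31550), a group IId gene that with *WRKY17* limits basal resistance to bacteria, had a summit 681 bp upstream with 141 dex reads over the floor, a fold of 5.91 and a ratio of 6.18 (5.20 to 7.29). The same summit was 2523 bp upstream of *HCF153*, a gene of chloroplast function. *WRKY49* (AT5G43290), of group IIc, had 119 dex reads over 19 mock reads 1133 bp upstream, a fold of 4.74 and a ratio of 4.93 (3.03 to 8.48). *WRKY8* (AT5G46350), a group IIc factor of salt stress and defence, had 76 dex reads over a background of 19.2 reads 699 bp upstream. The upstream gap of *WRKY8* was only 560 bp, so another annotated gene lay between it and this summit. The summit's fold of 3.02 and ratio of 3.12 (2.33 to 4.16) were among the lowest, and its −log10 q-value of 10.4 was the lowest of all the member summits.

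**Figure D2:**
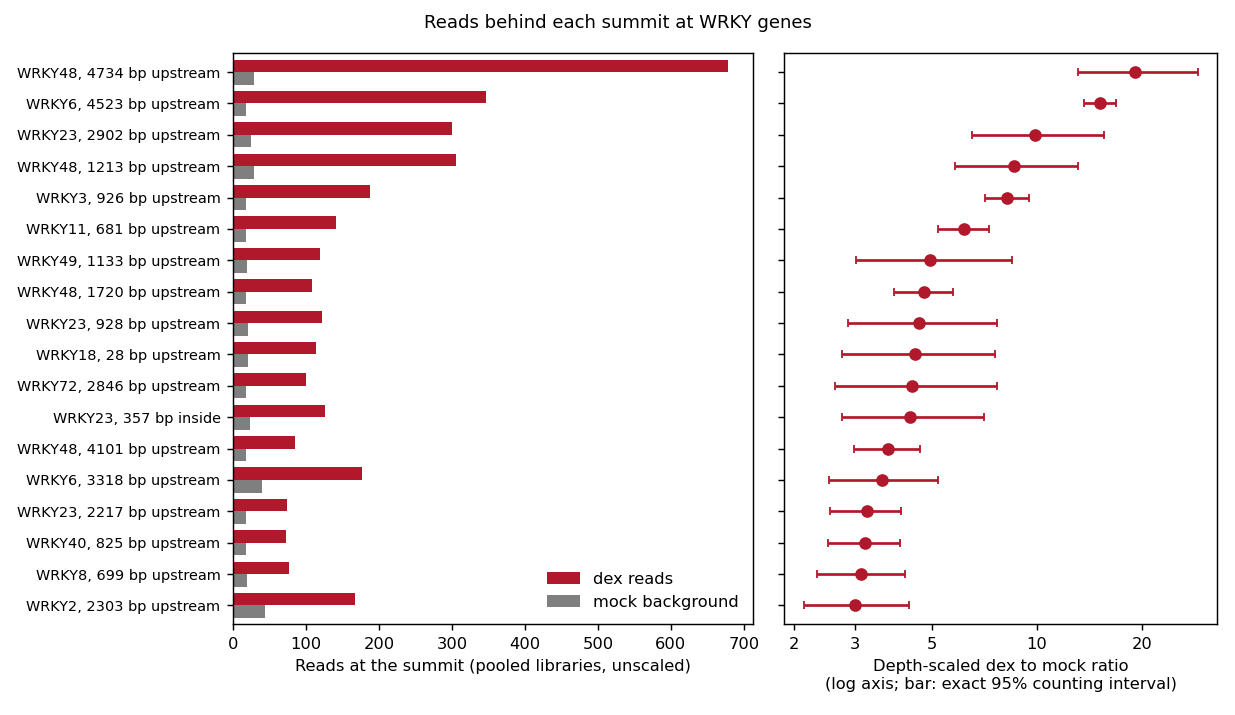
Left, reads at each of the 18 summits of WRKY genes within 5 kb, pooled dex reads in red over the mock background in grey, unscaled for depth. Right, the dex to mock ratio scaled for depth on a log axis with its exact 95% counting interval; the ratios run from 2.99 at WRKY2 to 19.1 at the distal summit of WRKY48, and intervals are narrower where the background is the genome-wide floor.

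As a group, the summits of WRKY genes were about as strong as those of the whole list. The 14 within 3 kb had a median ratio of 4.51 (quartiles 3.51 and 5.87), against 4.20 (3.51 and 5.47) over all nuclear summits. Their dex reads ran from 73 to 305 with a median of 120.5, and over all nuclear summits from 72 to 701 with a median of 114. The peak intervals were also of similar width, with medians of 320.5 bp and 357 bp. The mock background was at the genome-wide floor in 5 of the 14, against 376 of 1177. Leaving out *WRKY23* and *WRKY48* gave a median ratio of 4.41. Of the 10 members, 2 (20%) had more than 1 summit within 3 kb, against 149 of 1185 protein-coding genes (12.6%).

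By position, 1 of the 14 summits lay in a gene (7.14%), 6 up to 1 kb upstream (42.9%), 3 between 1 and 2 kb (21.4%) and 4 between 2 and 3 kb (28.6%). Over the 1348 pairs of a summit and a protein-coding gene the shares were 18.4%, 34.5%, 23.0% and 24.1%. In both sets the bin next to the gene start held the largest share. Counting only summits inside the gene gave 1 member (1.67%) against 240 protein-coding genes (0.875%). With 1 kb upstream included, 6 members (10%) stood against 2.43% of protein-coding genes, and with 10 kb, 16 members (26.7%) against 10.2%. Between 4 and 5 kb the members' count did not move, while that of all protein-coding genes went on growing.

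**Figure D3:**
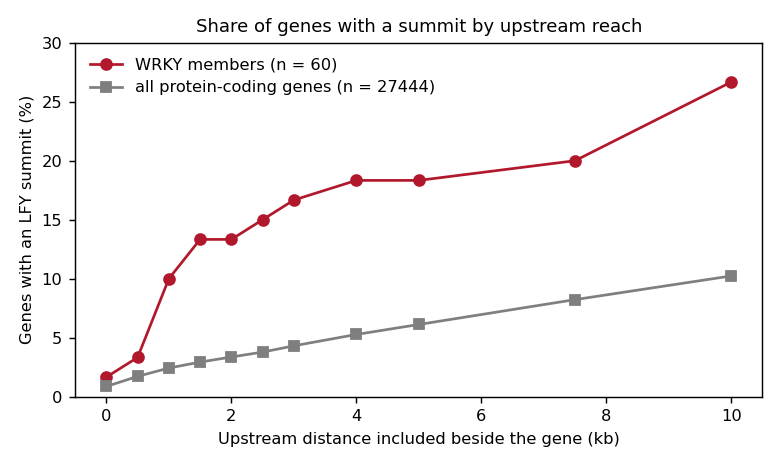
Share of genes with an LFY summit in the gene or within the upstream distance on the x axis, in percent, for the 60 WRKY members (red) and all 27444 protein-coding genes (grey). The members' share reaches 10% at 1 kb and 26.7% at 10 kb, and the grey line is at 2.43% and 10.2%.

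WRKY genes have long upstream regions, and this moved with the share of bound genes. The median upstream gap was 2822 bp for the 60 members, against 720 bp over all protein-coding genes. It was 3403.5 bp for the 10 members with a summit and 2471 bp for the 50 without. Over all protein-coding genes the share with a summit was 2.74% where the gap was under 1 kb and 10.4% where it was at least 5 kb. Within the quartiles of the members' own gaps, 1346 to 4257.5 bp, 6 of 30 members (20%) had a summit, against 478 of 7140 protein-coding genes (6.69%). In the bin from 3 to 5 kb the counts were 5 of 20 members (25%) and 201 of 2188 protein-coding genes (9.19%). In the bin from 1 to 2 kb none of 9 members had a summit, against 4.67% of protein-coding genes. The part of gap length in the members' share was not tested further.

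The share was also set beside other large families of transcription factors, taken from gene descriptions in the annotation. Taken from the annotation in the same manner, WRKY genes with a summit numbered 12 of 77 (15.6%). Upstream gaps of the other families were not compared. MYB genes, many of them regulators of secondary metabolism and cell fate, came next with 16 of 125 (12.8%). They were followed by bHLH genes with 12 of 120 (10%), ERF/AP2 genes with 8 of 101 (7.92%), NAC genes with 8 of 110 (7.27%) and bZIP genes with 4 of 70 (5.71%). Each of the 5 families was above the share of all protein-coding genes. Within 5 kb WRKY members stood at 18.3% and MYB genes at 16%. With these numbers of genes, 1 member more or less moves the WRKY share by 1.67 percentage points, and differences between families were not tested.

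**Figure D4:**
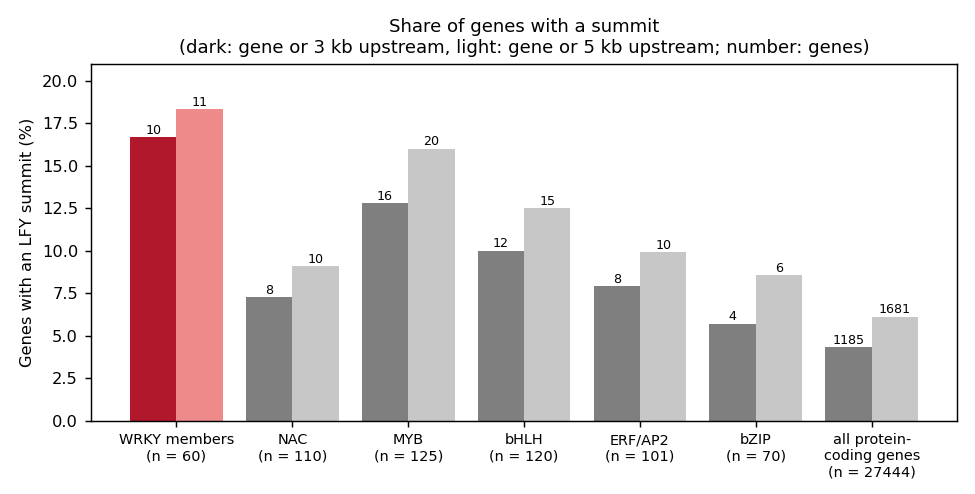
Percent of genes with an LFY summit in the gene or up to 3 kb (dark) or 5 kb (light) upstream, for the WRKY members (red, n = 60), 5 other transcription factor families and all protein-coding genes (grey). Numbers above the bars are genes; the WRKY members stand at 16.7% and 18.3%, MYB genes at 12.8% and 16%, and all protein-coding genes at 4.32% and 6.13%.

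The bound members were spread over the groups of the family but were missing from some. Group IIc, which holds members of development as well as defence, had 4 of 16 (25%), group I 2 of 12 (16.7%), group IId 1 of 6 (16.7%) and group IIb 1 of 8 (12.5%). Group IIa had 2 of 3. *WRKY23* was placed in group IIc here, and with it in group I, as a note in the annotation has it, the counts would be 3 of 15 in group IIc and 3 of 13 in group I. No member of group III, with many genes of salicylic acid signalling and senescence, had a summit, of 8, and none of group IIe, of 6. *WRKY45*, which was put in no group, had none. At the share of all protein-coding genes, 4.32%, each of these groups would hold less than 1 gene with a summit, so differences between groups were not read further. Only the 60 members were sorted into groups. *WRKY66*, a WRKY gene outside the members that had a summit, is in none of these counts.

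The other 49 members had no summit in the gene or within 5 kb upstream. Their nearest summit was 6065 bp away at the closest (*WRKY46*) and 1106330 bp at the farthest (*WRKY42*), with a median of 37154 bp, and for 6 of the 49 it lay within 10 kb. In group I these were *WRKY1*, *WRKY4*, *WRKY10*, *WRKY20*, *WRKY25*, *WRKY26*, *WRKY32*, *WRKY33*, *WRKY34* and *WRKY44*, with nearest summits from 8299 to 548416 bp. In group IIb they were *WRKY9*, *WRKY31*, *WRKY36*, *WRKY42*, *WRKY47* and *WRKY61*, from 23936 bp upwards. In group IIc they were *WRKY12*, *WRKY13*, *WRKY24*, *WRKY28*, *WRKY43*, *WRKY50*, *WRKY51*, *WRKY56*, *WRKY57*, *WRKY59*, *WRKY71* and *WRKY75*, from 8066 to 100543 bp. *WRKY12*, *WRKY13* and *WRKY71*, known regulators of flowering time and singled out here after their values were seen, thus had no summit within 5 kb. In group IId they were *WRKY7*, *WRKY15*, *WRKY17*, *WRKY21* and *WRKY39*, from 15921 to 84414 bp. In group IIe they were *WRKY14*, *WRKY22*, *WRKY27*, *WRKY29*, *WRKY35* and *WRKY65*, from 6739 to 92593 bp. In group III they were *WRKY30*, *WRKY38*, *WRKY41*, *WRKY46*, *WRKY53*, *WRKY54*, *WRKY55* and *WRKY70*, from 6065 to 291152 bp. *WRKY60* of group IIa and *WRKY45*, at 8978 bp, complete the list. Absence from the list means that no peak passed the authors' limit on the q-value, not that LFY was absent.

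To see which elements lay under the summits, the sequence within 150 bp of each was searched for an exact CCANTGG core, whose letters read the same on both strands. Of the 14 WRKY summits, 1 had such a core (7.14%, 95% Wilson interval 1.27 to 31.5%), against 154 of 1177 nuclear summits (13.1%). In windows 1000 bp to the left and right the share was 3.74% and 4.33% over all summits and 0 of 14 on either side of the WRKY summits. The single core was in the *WRKY11* window printed above, with its centre 15 bp from the summit. With up to 1 mismatch outside the N, 10 of the 14 windows (71.4%) held a match, against 73.6% of all summit windows and 50.3% and 51.0% of the windows to the left and right. Such a loose match is frequent by itself, so it was also counted within 25 bp, where 6 of 14 WRKY summits (42.9%) stood beside 38.3% of all summits and 11.8% and 12.1% of the flanking windows.

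Several of the nearest loose matches were very close to the summit. At *WRKY8* it read CCAGTAG, 5 bp from the summit. At *WRKY72* it read CCATTGA at 4 bp, and at *WRKY40* CTAGTGG at 13 bp. At the farthest *WRKY23* summit it read CCATCGG at 16 bp, and at *WRKY2* CTATTGG at 11 bp. At the distal *WRKY6* summit, outside the 14, CCTTTGG was 1 bp away. These stretches stand in lower case in the sequences of *WRKY6*, *WRKY23* and *WRKY40* given above, and that of *WRKY72* shares letters with its W-box. The summits of *WRKY18*, *WRKY3* and *WRKY49* and the *WRKY23* summit 928 bp upstream had no match within 150 bp even with 1 mismatch.

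W-boxes, the target elements of WRKY proteins, were counted on both strands as TTGACC or TTGACT. Within 150 bp, 11 of the 14 WRKY summits had at least 1 W-box (78.6%, Wilson interval 52.4 to 92.4%), against 565 of 1177 nuclear summits (48.0%). In the windows to the left and right the counts were 7 and 4 of 14 for WRKY summits, against 29.1% and 29.8% over all summits. Within 50 bp, 9 of 14 WRKY summits had a W-box (64.3%, Wilson interval 38.8 to 83.7%), against 25.3% of all summits. The corresponding flanking windows held one in 2 and 0 of 14 for WRKY summits and in 10.9% and 11.1% over all summits. The share was thus above that of the flanks both at WRKY summits and over the whole list. None of the W-boxes at WRKY summits shared bases with an exact core. Only 1 of the 14 had a core at all, so this count says little. Over all nuclear summits 11 of 1177 had such a pair, and 154 had a core within 150 bp. The GC content of the summit windows was alike, with a median of 33.1% at WRKY summits and 32.9% over all, while the windows to the left and right had 30.1% and 29.9% at WRKY summits and 32.9% and 32.6% over all. Over 18 summits within 5 kb the counts were 13 within 150 bp (72.2%) and 10 within 50 bp (55.6%). The letters TTGAC alone gave 11 of 14 against 63.5% over all summits. Summits that share a gene are not independent of one another, although the intervals treat them as if they were. *WRKY23* gave 4 of the 14 summits and *WRKY48* gave 2. Within 5 kb *WRKY48* gave 4 and *WRKY6* gave 2.

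**Figure D5:**
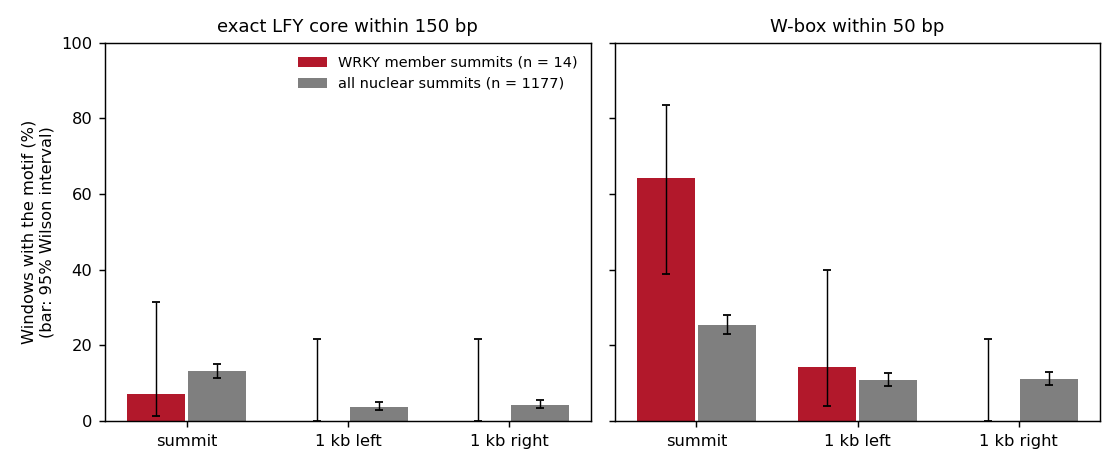
Percent of windows with an exact LFY core within 150 bp (left) and with a W-box within 50 bp (right), at summits and at points 1 kb to either side, for the 14 summits of WRKY genes within 3 kb (red) and all 1177 nuclear summits (grey). Bars are 95% Wilson intervals over windows; a W-box lies within 50 bp of 64.3% of the WRKY summits and of 25.3% of all summits, and the exact core at 7.14% and 13.1%.

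At *WRKY11*, *WRKY72* and the *WRKY23* summit inside the gene, the nearest W-box was 1, 2 and 2 bp from the summit, counted to one of its middle bases. At *WRKY2* it was 6 bp and at *WRKY40* 14 bp away. *WRKY40* had its 2 W-boxes directly next to each other, and the distal *WRKY48* summit, whose nearest W-box was 33 bp away, had 4 within 150 bp. *WRKY8* also had 4 within 150 bp. The summits of *WRKY18* and both proximal summits of *WRKY48* had none. A match says only that these letters are in the reference sequence of Columbia, whereas the tissue was L.er.

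Apart from that of *WRKY18*, the windows around the summits lay outside the promoters next to the starts, which were searched separately. In a window from 250 bp before to 50 bp after the start, 21 of the 60 members had a W-box (35.0%), against 32.4% of all protein-coding genes. Of the 10 members with a summit, 2 did, *WRKY11* and *WRKY72*, and of the 50 without a summit 19 did (38%). At least 2 W-boxes were found in 10 members (16.7%), against 7.70% of protein-coding genes. All 10 were members with no summit, but 50 of the 60 members had none, so this was not read further. An exact LFY core was in the promoter window of 3 of the 60 members (5%), against 3.93% of all protein-coding genes. These 3 were also without a summit, a count too small to be read further.

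To place the members among the genes they work with, 29 genes around WRKY factors were looked up by the same rule. Of these, 3 (10.3%) had a summit within 3 kb, against 4.32% of all protein-coding genes. The 29 genes were chosen with earlier results of these data known, and the list is too short for the difference to be read. None of the 8 kinases of the mitogen-activated cascades that act on WRKY proteins had one. At the share of 4.32% a list of 8 genes would hold less than 1, and so would the lists of 5, 12 and 4 genes that follow. Of 5 genes of VQ proteins, small partners of WRKY factors, *SIB2* (AT2G41180) had 2 summits, 1487 and 2636 bp upstream, with 96 and 136 dex reads and folds of 4.04 and 4.86. Both were also upstream of AT2G41170. Of 12 target genes of WRKY factors, *ICS1* (AT1G74710), the isochorismate synthase of salicylic acid production, had a summit 2527 bp upstream with 82 dex reads over the floor and a fold of 3.46, a summit that *IQD31* also took. Of 4 upstream regulators, *ARF19* (AT1G19220), an auxin response factor that acts upstream of *WRKY23* in auxin signalling, had 2 summits and no other gene that took them. The one 295 bp upstream had 209 dex reads over 29 mock reads, a fold of 5.52 and a ratio of 5.68 (3.84 to 8.69). The other, 1470 bp upstream, had 228 dex reads over 18 mock reads, a fold of 9.51 and a ratio of 9.98 (6.17 to 17.1). Its ratio was close to that of the strongest summit of *WRKY23*, and the intervals overlapped. No summit of these 3 genes had an exact core within 150 bp.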

How the data were processed

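The authors deposited 1 peak list. Per the study's methods, reads were trimmed with Trimmomatic, mapped to TAIR10 with Bowtie2 and kept where uniquely mapped, and MACS2 called peaks in 3 pooled dex libraries over 3 pooled mock libraries, without the inputs. The submitters' processing notes give MACS2 2.1.1.20160309 and Trimmomatic 0.36, and the methods name other versions. The deposited fold is a ratio, (pileup + 1) / (background + 1). The deposited −log10 p-values are Poisson values at the summit. The q-values deposited beside them, also as −log10, were adjusted by MACS2, and all reached 10. No per-sample column was left out of use.

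Of 1181 peaks, 4 on the chloroplast were set aside. A summit was given to every protein-coding gene of the TAIR10.1 annotation (RefSeq, same chromosomes) that took it. Reads were solved from fold and p-value, with exactly 1 solution for 1177 of 1181 peaks and a dex to mock scale of 0.788. The solver, the assignment and the search for exact cores were tested on simulated data, whereas the W-box and 1-mismatch searches were not. MACS2 takes the highest of several backgrounds, which lowers ratios. Intervals cover counting error only, since the libraries were pooled before calling. The reads carry no molecular identifiers. By the study's methods, duplicates were limited by an automatic setting in MACS2. The submitters' tools also include Picard 2.9.4. The members, the group and gene lists and the tests were chosen with earlier results of these data known. Named were all members with a summit within 5 kb, and other genes only with a summit within 3 kb; the members without one are listed. Promoter windows were read from the genome. Python 3.11.15, pandas 2.3.3, SciPy 1.17.1, statsmodels 0.14.6 and matplotlib 3.10.9 were used. Alternatives were other distances, q-value limits, ways of assigning summits, gene lists and motif windows.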

Additional observations from a re-analysis of the deposited data

How the results depend on the processing

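Of 42 alternatives, 5 were chosen after seeing the data. Apart from these, the 5 kb distance was set with the distal *WRKY48* peak known. Only the difference of the shares has a sign that could turn, and it was positive under all 11 of its alternatives. These share the same peaks and WRKY genes chosen with earlier results of these data known, so they add no independent support. The members with a summit numbered 6 with 1 kb upstream (*WRKY3*, *WRKY8*, *WRKY11*, *WRKY18*, *WRKY23* and *WRKY40*) and 3 with the q-value limit at 50 on the −log10 scale (*WRKY3*, *WRKY23* and *WRKY48*), and a limit of 20 left out *WRKY8* and *WRKY40*. Under the other settings of distance, assignment and q-value the count was 8 to 11. The share of protein-coding genes, 4.32% in the report, was 6.13% with 5 kb, 2.43% with 1 kb, 3.37% with 2 kb, 3.59% without the gene itself, 5.17% with 1 kb downstream, 4.59% by any base of the interval, 3.02% by nearest start, 2.72% with the limit at 20 and 0.998% with it at 50. The difference of the shares was 12.35 percentage points in the report, 4.0 with the limit at 50 and 7.57 with 1 kb upstream. It was 9.97 for all 60 members against genes with upstream gaps within the quartiles of the members' gaps. Only 30 members had such gaps themselves, and of those 20% had a summit, against 6.69% of the genes. Allowing 1 mismatch raised the summits with a core from 1 to 10. The share of members with a W-box in the promoter window, 35.0%, was 60% with TTGAC. Around the summits themselves, a different unit, 11 of 14 windows had a W-box (78.6%). No paired analysis was possible because the libraries were pooled before calling, and for the same reason no library could be left out. The fewest dex reads behind any nuclear summit were 72, a minimum that goes with the authors' limit on the q-value, and weaker signal at the other members is not in the list.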

Other observations

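The annotation names 77 protein-coding genes as WRKY, 17 more than the members, and 12 of the 77 (15.6%) had a summit within 3 kb, against 4.32% of all protein-coding genes. The 2 beyond the members were *WRKY66* (AT1G80590) and AT4G31805. *WRKY66* had a summit 206 bp upstream with 106 dex reads over 29 mock reads, a fold of 2.82 and a ratio of 2.88 (1.89 to 4.51), with 1 W-box and no exact core within 150 bp. AT4G31805, whose protein is known as POLAR, a factor of asymmetric division in the stomatal lineage, shares the summit of *WRKY18* and has no summit of its own.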
